A study of Homo sapiens with 6 samples.

Results

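Glucose and lactate cross the plasma membrane through facilitative carriers, and the mRNAs of 10 of the genes behind this traffic were followed in colorectal cancer cells depleted of ZEB1. The list holds 6 glucose transporters of the SLC2 (GLUT) family, SLC2A1, SLC2A3, SLC2A6, SLC2A8, SLC2A10 and SLC2A12, 3 monocarboxylate transporters of the SLC16 (MCT) family, SLC16A1, SLC16A3 and SLC16A7, and BSG, the chaperone of SLC16A1 and SLC16A3. Members were matched by gene name in the count tables, where 9 of the 10 had an entry among 32029 genes listed; SLC16A7 is not analysed here. All 9 passed the filter on low counts and were tested among 14996 genes. SLC2A1, SLC2A6, SLC16A1 and SLC16A3 fell after the knockdown, while SLC2A3 rose, so that the mRNA pool of the glucose transporters kept about its size and changed its make-up.

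SW480 is an established line from a human colorectal adenocarcinoma. Total RNA was sequenced from 6 cultures of this 1 line, each 48 h after transfection, 3 with a control siRNA (siControl, named siNC in the records, genotype WT) and 3 with an siRNA against ZEB1 (siZEB1). ZEB1 is a zinc finger repressor that drives the epithelial-mesenchymal transition, and the series asks how it acts on glycolysis. The sequence of the siRNAs and whether more than 1 was used are not given in the sources used here, so an effect of ZEB1 loss and an effect of the siRNA itself cannot be told apart. The methods call the cultures biological replicates, and all groups share the cell line, the transfection and the time point.

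SLC2 proteins carry glucose or related sugars down their gradient. SLC2A1 supplies most proliferating cells with glucose, SLC2A3 is a carrier of high affinity best known from neurons, and SLC2A6, SLC2A8, SLC2A10 and SLC2A12 are less studied, the first of these residing largely in lysosomes and the second in intracellular vesicles. SLC16A1 (MCT1) and SLC16A3 (MCT4) move lactate together with a proton, and SLC16A3 is known as the lactate exporter of highly glycolytic cells. Both need BSG (basigin, CD147), a glycoprotein of the immunoglobulin family, to reach the cell surface. SLC2A1 and SLC16A3 are textbook targets of the hypoxia-inducible factors.

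RefSeq promoter windows (GRCh38.p14) were found by symbol for 8 of the 10 genes, 14 windows in all; SLC2A3 and SLC16A1 had none. The 250 bases before each start site were searched on both strands for CACCTG (reverse complement CAGGTG), the E-box that ZEB1 binds, and for ACGTG (reverse complement CACGT), the core of the hypoxia response element. CACCTG was present in 3 of the 14 windows, 1 each of SLC2A8, SLC16A3 and BSG, and in 17.5% of the 35116 windows of all genes. ACGTG was present in 3 of the 14, 1 each of SLC2A10, SLC16A3 and BSG, and in 18.5% of all windows. Neither sequence occurred in the window of SLC2A1, SLC2A6 or SLC2A12, and sequence beyond the 250 bases was not searched. The start sites can differ from those of the principal GENCODE 29 transcripts, by 308 bases for SLC2A1 and 4645 for the SLC16A3 window printed here. Printed here 5′ to 3′, up to the first base that GENCODE 29 annotates as an exon of the same gene, are SLC2A6 (chr9:133479138-133479349, minus strand), whose mRNA fell and which holds neither sequence, SLC16A3 (chr17:82228792-82229031, plus strand), whose mRNA fell and which holds ACGTG at 68 and 55 bases before the start, and BSG (chr19:572346-572564, plus strand), whose mRNA did not pass the test. Capitals mark the matches.
SLC2A6: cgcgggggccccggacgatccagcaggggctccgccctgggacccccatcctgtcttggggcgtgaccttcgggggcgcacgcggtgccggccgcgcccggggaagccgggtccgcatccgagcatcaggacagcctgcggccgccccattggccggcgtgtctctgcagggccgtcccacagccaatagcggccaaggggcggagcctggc
SLC16A3: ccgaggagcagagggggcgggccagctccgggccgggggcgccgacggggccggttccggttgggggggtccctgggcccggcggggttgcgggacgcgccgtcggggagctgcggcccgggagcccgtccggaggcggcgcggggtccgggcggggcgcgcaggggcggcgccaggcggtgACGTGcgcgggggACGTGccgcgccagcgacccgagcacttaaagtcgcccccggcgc
BSG: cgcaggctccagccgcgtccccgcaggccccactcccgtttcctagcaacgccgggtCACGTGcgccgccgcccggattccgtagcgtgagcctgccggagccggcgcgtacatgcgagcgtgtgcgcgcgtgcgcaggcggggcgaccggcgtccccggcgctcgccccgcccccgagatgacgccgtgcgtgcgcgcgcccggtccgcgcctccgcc
The BSG match is CACGTG, which contains ACGTG on both strands and so counts as 2 overlapping matches, at 193 and 192 bases before the start. Of the 5 SLC16A3 windows, 1 other held CACCTG, 30 bases before its start, and the RNA data do not say which start SW480 cells use. A match of letters is a description of the sequence and no measure of binding.

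ZEB1 itself, the target of the siRNA, stood at 58.6, 57.0 and 47.1 CPM (read counts scaled for library size) in the siControl cultures and at 7.20, 6.86 and 8.46 CPM in the siZEB1 cultures. All 3 knockdown cultures lay far below all 3 controls (log2 fold change -2.85, SE 0.11, adjusted p = 4.85e-12, edgeR's quasi-likelihood test with Benjamini-Hochberg adjustment over all genes tested). The cultures held between 19040636 and 22357633 counted reads. Replicate 3 stood apart in both groups: it differed from its fellows by 7.17 and 9.58 times sampling noise in siControl and by 4.95 and 7.01 times in siZEB1, whereas replicates 1 and 2 differed by 3.61 and 2.27 times (chi-square over degrees of freedom). The 5 calls reported for the transporters were also made without both replicate 3 cultures. Of 7 colon epithelial markers 6 were tested, and their summed level was 4741 to 5364 CPM with siControl and 5126 to 5770 CPM with siZEB1, most of it from the keratins KRT8 and KRT18, which were not called. EPCAM of this list rose from 54.7 ± 2.29 to 454 ± 14.1 CPM (SD, n = 3), VIL1 was called higher and CDX2 lower, and their part in the results was not tested. KRT20, a marker of differentiated colon epithelium, was near absent at 0.104 to 0.941 CPM over the 6 cultures. The summed fibroblast markers reached 10.9 CPM at most, the endothelial markers 2.72 CPM and the immune markers 0.468 CPM, each with overlapping ranges in the groups. Since the libraries are bulk RNA, fewer cells with a transcript and less of it per cell cannot be told apart.

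SLC2A3 and SLC2A1 were among the most abundant mRNAs of these cells. Divided by exonic length, SLC2A3 stood at 604 ± 15.5 CPM per kb (SD, n = 3) and SLC2A1 at 434 ± 6.58 CPM per kb (SD, n = 3) in siControl, ranks 34 and 53 among the genes ranked by level per kb. BSG followed at 220 ± 19.5 CPM per kb, SLC16A1 at 161 ± 12.0 CPM per kb and SLC16A3 at 36.3 ± 1.49 CPM per kb. The remaining glucose transporters were weakly expressed, SLC2A6 and SLC2A8 at 4.76 ± 0.522 and 4.65 ± 0.311 CPM per kb, SLC2A10 at 1.21 ± 0.147 CPM per kb and SLC2A12 at 0.464 ± 0.141 CPM per kb. Neighbours in this order were separated in every siControl culture except SLC2A6 and SLC2A8, whose levels overlapped. With siZEB1 the order of the 5 most abundant stayed as it was, with SLC2A3 at 807 ± 20.5, SLC2A1 at 272 ± 4.53 and BSG at 228 ± 15.4 CPM per kb, but SLC2A1 dropped to rank 105 and SLC2A3 moved up to rank 22. This order depends on the length used: per kb of the principal transcript, BSG (438 ± 29.7 CPM) exceeded SLC2A1 (350 ± 5.83 CPM) in siZEB1, and SLC2A8 (8.41 ± 0.562 CPM) exceeded SLC2A6 (6.66 ± 0.731 CPM) in siControl.

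**Figure D1:**
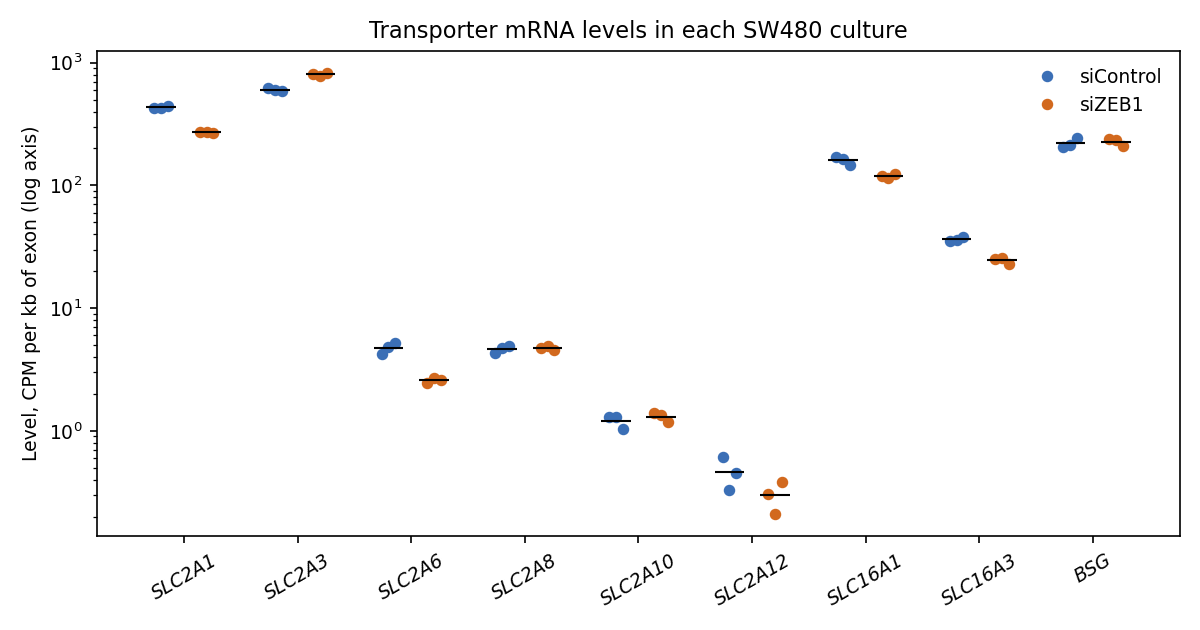
Level of each of the 9 transporter genes with data in each of the 6 cultures, in CPM per kb of exon on a log axis; points are cultures, short lines the means of the 3 cultures. The siZEB1 points of SLC2A1, SLC2A6, SLC16A1 and SLC16A3 lie below all siControl points, those of SLC2A3 above them, and the groups overlap for SLC2A8, SLC2A10, SLC2A12 and BSG.

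Of the 9 members tested, 1 was called higher with siZEB1 (background over all genes tested, 19.0%) and 4 were called lower (background 21.2%), while 4 did not pass the test at an adjusted p of 0.05; among all genes 40.2% passed it in either direction. The groups did not overlap for 5 members (background 49.5%), 1 with siZEB1 on the higher side (background 24.3%) and 4 on the lower (background 25.3%). At a change of over 1.5-fold with p under 0.05 before adjustment, 0 members were higher (background 7.21%) and 3 lower (SLC2A1, SLC2A6 and SLC2A12; background 9.35%), and with p under 0.001 these were 0 (background 4.52%) and 2 (SLC2A1 and SLC2A6; background 6.7%). The median log2 fold change of the 9 was -0.43, beside -0.0055 over all 14996 genes tested. A large part of the transcriptome thus differed between siZEB1 and siControl cultures, and with 9 members the shares are given as counts only.

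SLC2A1 (GLUT1, ENSG00000117394, chromosome 1 from 42925375 to 42959176, minus strand) was the member with the smallest p. It stood at 2030, 2031 and 2085 CPM in siControl and at 1298, 1298 and 1261 CPM in siZEB1. The cultures of each group lay within a few percent of each other and the groups were wide apart. The log2 fold change was -0.67 (SE 0.046, 95% interval -0.77 to -0.58, adjusted p = 5.55e-09, edgeR's quasi-likelihood test), a level 0.628 times that of the control. Leaving out any single culture left the value between -0.68 and -0.66, and it was -0.64 without both replicate 3 cultures. Exons of other genes overlap 2.37% of its exonic bases on the same strand and 2.71% on the opposite strand, the latter from its antisense gene SLC2A1-AS1, whose reads cannot be separated where counting ignores strand.

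SLC2A3 (GLUT3, ENSG00000059804, chromosome 12 from 7919230 to 7936275, minus strand) moved the other way. Its level was 3820, 3703 and 3631 CPM in siControl and 4980, 4844 and 5095 CPM in siZEB1. Every knockdown culture exceeded every control, and the spread within each group was small beside the gap. The log2 fold change was 0.42 (SE 0.044, 95% interval 0.33 to 0.51, adjusted p = 9.34e-07, edgeR's quasi-likelihood test), or 1.34 times the control level. SLC2A3 alone took between 0.363% and 0.512% of all counted reads in a culture. Like SLC16A1 and SLC16A3, it fell short of the study's fold change threshold of 1.5 in the fit used here. The paper itself names SLC16A3 among the glycolysis-related genes with lower expression after ZEB1 depletion. For that statement it sets qRT-PCR beside RNA-seq, so its evidence is not the fold change threshold alone.

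SLC2A14 is a near-identical copy of SLC2A3 on the same chromosome, and reads of one can be assigned to the other or discarded. The coding sequences of both, in GENCODE 29, were identical at 96.6% of 1488 aligned bases, beside 67.2% of 1464 bases between SLC2A3 and SLC2A1. Stretches of 50 bases of the SLC2A3 transcript were found unchanged in SLC2A14 in 23.0% of positions, and stretches of 100 bases in 7.05%. SLC2A14 was counted at 4.28, 4.64 and 4.62 CPM in siControl and at 10.3, 10.04 and 12.5 CPM in siZEB1. These groups lay apart as well (log2 fold change 1.28, SE 0.13, adjusted p = 6.50e-07, edgeR's quasi-likelihood test). Both copies were thus called higher, with SLC2A14 reads amounting to 0.112% to 0.127% of SLC2A3 reads in siControl and 0.207% to 0.246% in siZEB1. Values of the pair are uncertain to the extent that shared reads were split, and how reads with several matches were counted is not given in the sources used here.

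SLC2A6 (GLUT6, ENSG00000160326, chromosome 9 from 133471095 to 133479137, minus strand) showed the largest fold change of the members. It had 14.9, 17.1 and 18.5 CPM in siControl and 8.63, 9.47 and 9.25 CPM in siZEB1, and no values overlapped. The log2 fold change was -0.88 (SE 0.11, 95% interval -1.11 to -0.66, adjusted p = 5.26e-06, edgeR's quasi-likelihood test), which is 0.542 times the control level. In the distribution of all genes tested it lay just beyond the lowest 5%, which ended at -0.85.

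The 3 other glucose transporters did not pass the test. SLC2A8 (GLUT8) read 17.0, 18.4 and 19.4 CPM in siControl and 18.4, 19.4 and 17.8 CPM in siZEB1, which overlap, with a log2 fold change of 0.023 (95% interval -0.17 to 0.21). SLC2A10 (GLUT10) read 6.49, 6.43 and 5.19 CPM against 6.99, 6.76 and 5.85 CPM, a log2 fold change of 0.11 (95% interval -0.18 to 0.40). Neither interval leaves room for a change as large as that of SLC2A1 or SLC2A6. SLC2A12 (GLUT12) had only 18 to 58 reads per culture, with 2.73, 1.47 and 2.02 CPM in siControl and 1.38, 0.936 and 1.72 CPM in siZEB1, with some overlap between them. The fitted log2 fold change of -0.62 (95% interval -1.22 to -0.016) had an adjusted p = 0.0957 by edgeR's quasi-likelihood test, and the gene was called lower without siControl replicate 2 (-0.82), without siZEB1 replicate 3 (-0.84) and without replicate 3 of both groups (-0.85). Of its exonic bases 38.9% are overlapped by TBPL1 on the opposite strand, so that its reads cannot be assigned with certainty where counting ignores strand.

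SLC16A1 (MCT1, ENSG00000155380, chromosome 1 from 112911847 to 112957013, minus strand), the more abundant lactate carrier, stood at 912, 867 and 786 CPM in siControl. The siZEB1 cultures had 629, 613 and 660 CPM. Although siControl replicate 3 was the lowest control and siZEB1 replicate 3 the highest knockdown culture, the groups stayed apart. The log2 fold change was -0.43 (SE 0.059, 95% interval -0.56 to -0.31, adjusted p = 1.72e-05, edgeR's quasi-likelihood test), and it ranged from -0.52 to -0.38 when cultures were left out. Its antisense gene SLC16A1-AS1 covers 3.29% of its exonic bases.

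SLC16A3 (MCT4, ENSG00000141526, chromosome 17 from 82228397 to 82261129, plus strand) fell as well. Its level was 317, 320 and 342 CPM in siControl and 227, 229 and 206 CPM in siZEB1, with a wide gap between the groups. The log2 fold change was -0.56 (SE 0.060, 95% interval -0.69 to -0.44, adjusted p = 1.08e-06, edgeR's quasi-likelihood test). Exons on the opposite strand, among them those of CSNK1D, overlap 5.36% of its exonic bases. SLC16A3 therefore stood at 0.676 times and SLC16A1 at 0.741 times its control level, with overlapping 95% intervals of the fold (0.619 to 0.738 and 0.680 to 0.808). The difference between both falls was not tested.

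BSG (ENSG00000172270, chromosome 19 from 571277 to 583493, plus strand), on which both lactate carriers depend for transport to the membrane, did not pass the test. It stood at 782, 806 and 921 CPM in siControl and at 904, 895 and 798 CPM in siZEB1. The groups overlapped through the replicate 3 cultures, which were the highest control and the lowest knockdown. The log2 fold change was 0.050 (95% interval -0.088 to 0.188, adjusted p = 0.577, edgeR's quasi-likelihood test). Without both replicate 3 cultures, an alternative chosen after the data were seen, BSG was called higher, with a log2 fold change of 0.18 (adjusted p = 0.000127; adjusted p over all alternatives 0.000127 to 0.983). With or without them, no fall like that of the carriers was measured for BSG.

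**Figure D2:**
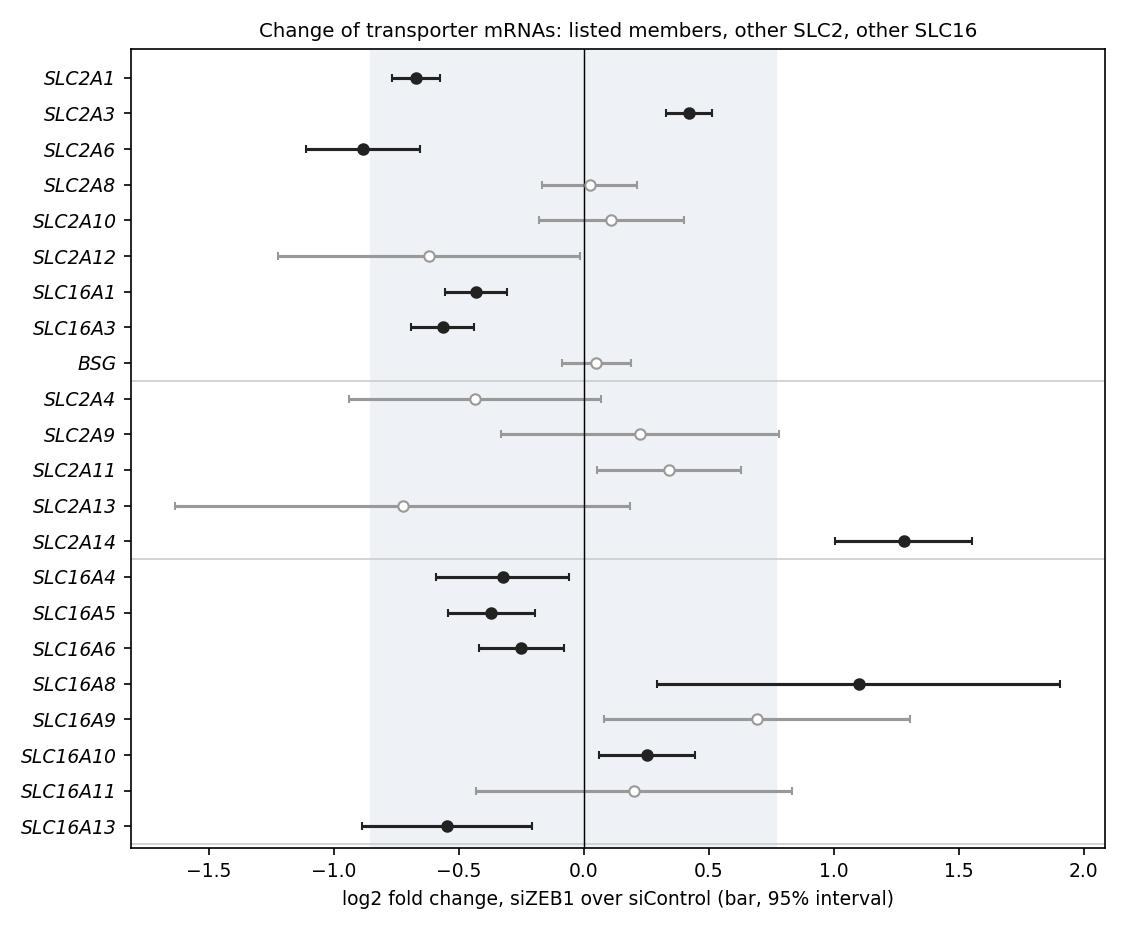
Log2 fold change of siZEB1 over siControl for the listed members (top), other SLC2 genes (middle) and other SLC16 genes (bottom), with 95% intervals; filled points passed the test at an adjusted p of 0.05 and the shaded band, from -0.85 to 0.77, leaves 5% of all genes tested beyond each end. Of the filled points, SLC2A3, SLC2A14, SLC16A8 and SLC16A10 lie to the right of zero, and SLC2A1, SLC2A6, SLC16A1, SLC16A3, SLC16A4, SLC16A5, SLC16A6 and SLC16A13 to the left.

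Summed levels show how these changes combine. Over the 6 glucose transporters the level was 1060, 1042 and 1042 CPM per kb in siControl and 1092, 1070 and 1103 CPM per kb in siZEB1. The groups did not overlap, but the means, 1048 ± 10.4 and 1089 ± 16.5 CPM per kb (SD, n = 3), differed by only 3.83%. SLC2A1 lost 162 CPM per kb and SLC2A3 gained 204 CPM per kb, while the other 4 made up 0.789% to 1.12% of the sum. The size of this small rise depends on the length by which reads are divided, since it was 8.34% for CPM not divided by length and 7.20% with the length of the principal transcript.

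The make-up of the glucose transporter pool changed far more than its size. SLC2A3 provided 58.5%, 57.7% and 56.6% of the sum in siControl and 74.0%, 73.5% and 75.0% in siZEB1, a shift of 16.6 percentage points that does not depend on library scaling. Put as a ratio of levels per kb, SLC2A3 exceeded SLC2A1 1.39 ± 0.0538 times (SD, n = 3) in siControl and 2.97 ± 0.121 times in siZEB1, so the ratio rose 2.13-fold. Every siZEB1 culture lay above every siControl culture in both measures. These totals are mRNA levels, and no protein or uptake was measured in these files.

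**Figure D3:**
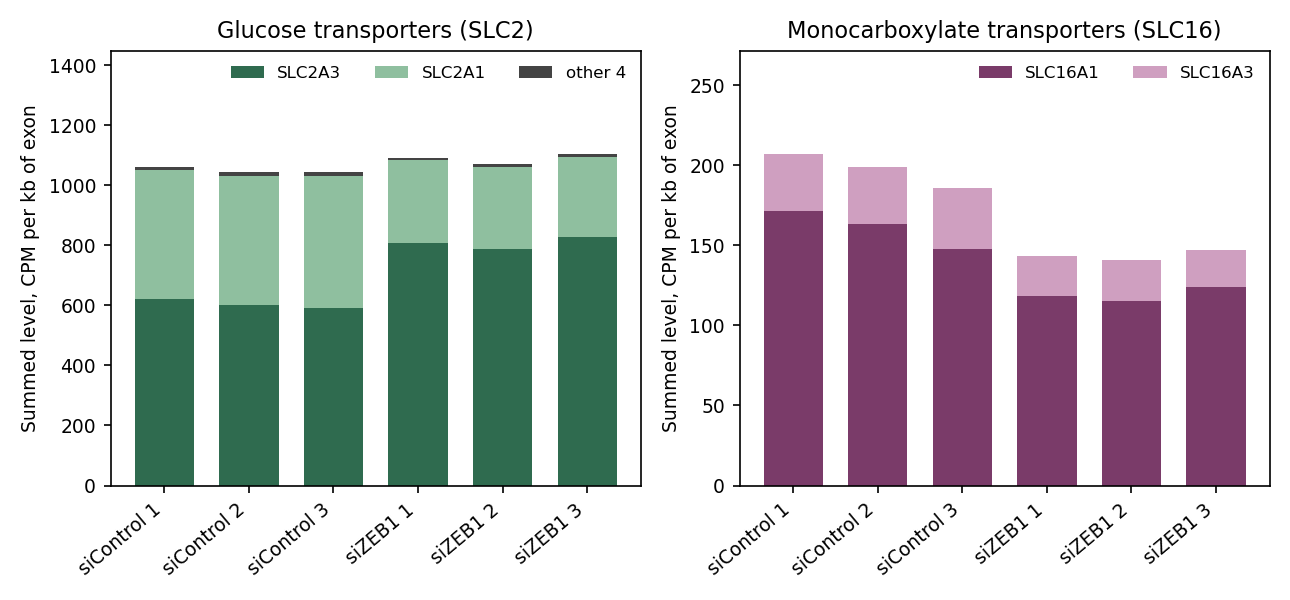
Summed level per culture, in CPM per kb of exon, of the 6 glucose transporters (left) and of SLC16A1 and SLC16A3 (right), as bars stacked by gene. The left bars keep nearly the same height, 1048 and 1089 on average, while the SLC2A1 segment shrinks; the right bars fall from 197 to 144 on average.

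The summed lactate carriers, SLC16A1 and SLC16A3, fell with both of their parts. They reached 207, 199 and 186 CPM per kb in siControl and 144, 141 and 147 CPM per kb in siZEB1. The means of 197 ± 10.5 and 144 ± 3.19 CPM per kb (SD, n = 3) differed by -27.1%, and the groups did not overlap. SLC16A3 gave 18.5 ± 1.76% of this sum in siControl and 17.1 ± 1.32% in siZEB1, a difference of -1.38 percentage points within the spread of the cultures. In the same way the ratio of SLC16A1 to SLC16A3 per kb, 4.45 ± 0.500 and 4.88 ± 0.472, overlapped between the groups. The balance between both lactate carriers was thus not distinguishable between the groups, whereas that between SLC2A1 and SLC2A3 was.

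Relative to its clients, whose summed level fell, BSG mRNA became more abundant, although BSG itself did not pass the test. The ratio of BSG to the summed lactate carriers per kb was 0.995, 1.07 and 1.30 in siControl and 1.66, 1.67 and 1.43 in siZEB1. The groups did not overlap, and the mean went from 1.12 to 1.59. Over all glucose and lactate carriers together, the summed level was 1246 ± 19.8 and 1232 ± 19.7 CPM per kb (SD, n = 3), with overlapping groups. This total was not computed with other lengths, on which the change of its glucose transporter part depends.

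**Figure D4:**
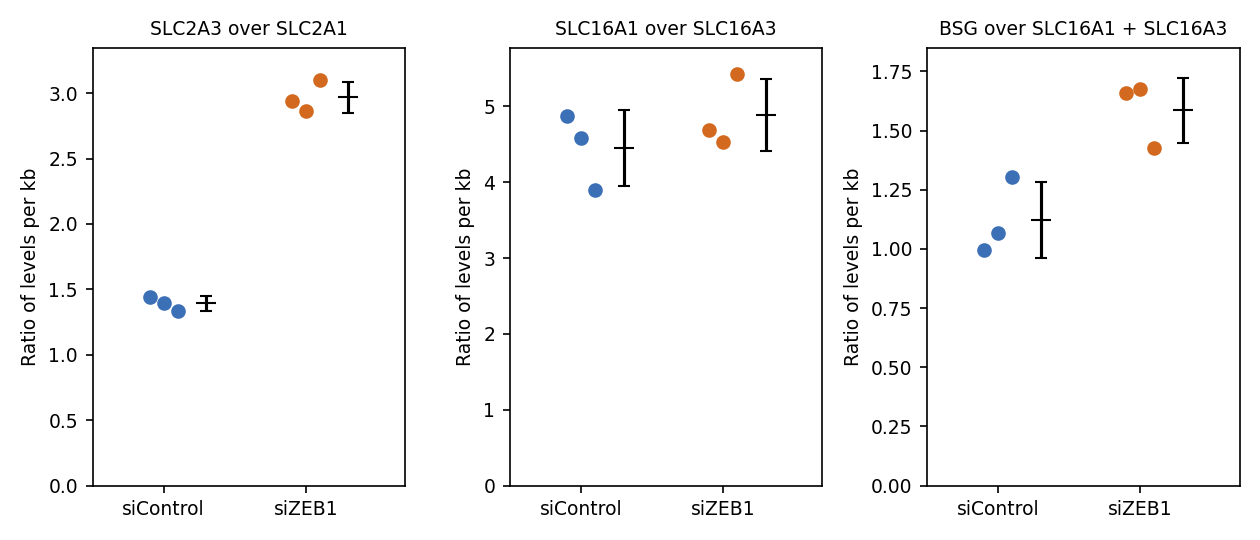
Ratios of levels per kb within each culture, with the mean and SD of the 3 cultures beside the points: SLC2A3 over SLC2A1 (left), SLC16A1 over SLC16A3 (middle) and BSG over the sum of SLC16A1 and SLC16A3 (right). The first and the third separate the groups, with means of 1.39 and 2.97 and of 1.12 and 1.59, and the second does not.

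Among 8 other SLC2 genes, 5 were tested, of which 1, SLC2A14, was called higher and 0 were called lower, beside 19.0% and 21.2% of all genes. The insulin-responsive SLC2A4 was low, between 1.27 and 2.44 CPM, and was not called. Of 10 other SLC16 genes 8 were tested, with 2 called higher and 4 called lower and a median log2 fold change of -0.025. SLC16A8, named after its values were seen, had the largest change of them (log2 fold change 1.10, adjusted p = 0.0295, edgeR's quasi-likelihood test) at no more than 27 reads in a culture. SLC16A13 (MCT13) was the lowest of those called, at 5.31, 6.12 and 7.73 CPM in siControl and 4.40, 3.85 and 4.81 CPM in siZEB1. All siZEB1 cultures lay below all siControl cultures (log2 fold change -0.55, adjusted p = 0.0119, edgeR's quasi-likelihood test), but the gene is weakly expressed and lost its call without siControl replicate 3 (-0.40) and without siZEB1 replicate 2 (-0.47). SLC16A10, an aromatic amino acid transporter, was called higher by 0.25 on the log2 scale (adjusted p = 0.0355), a call lost under 7 alternatives, where adjusted p ranged up to 0.150.

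Other routes for the same substrates were measured in a list of 11 sodium-coupled and mitochondrial carriers, of which 4 passed the filter. Of these 4, 1 was called higher and 1 lower, beside 19.0% and 21.2% of all genes. The sodium-coupled glucose carriers SLC5A1 and SLC5A2 fell below the filter, with at most 0.159 CPM in a culture. MPC1, a subunit of the mitochondrial pyruvate carrier, had 24.6, 24.5 and 29.9 CPM in siControl and 30.8, 32.9 and 33.7 CPM in siZEB1. The groups did not overlap, and MPC1 was called higher (log2 fold change 0.31, adjusted p = 0.0113, edgeR's quasi-likelihood test), a call lost without siControl replicate 2 (adjusted p = 0.0707). Its partner MPC2 had a log2 fold change of 0.23 and an adjusted p of 0.0973, and was called without replicate 3 of both groups (0.34). SLC5A3, a myo-inositol carrier, was called lower (-0.27, adjusted p = 0.0395) with overlapping groups, and lost the call under 5 alternatives.

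Genes that govern whether the transporters reach or stay on the surface were listed as a group of 10, of which 9 were tested. In this group 5 were called higher and 0 lower, beside 19.0% and 21.2% of all genes, and the median log2 fold change was 0.24, beside -0.0055 for all genes. TXNIP, an arrestin that is induced by glucose and drives SLC2A1 off the cell surface, stood at 43.5, 37.1 and 41.6 CPM in siControl and at 90.7, 91.5 and 87.4 CPM in siZEB1. The gap between the groups was several times the spread within them, and the log2 fold change was 1.14 (adjusted p = 2.74e-09, edgeR's quasi-likelihood test). ARRDC4, an arrestin of the same family, was low at 3.90 to 5.30 CPM and was not called (0.19, adjusted p = 0.352). VPS26A, a subunit of the retromer that returns SLC2A1 from endosomes to the surface, was also called higher (log2 fold change 0.53, adjusted p = 3.94e-06), so the group holds rises of genes with opposite roles. EMB, the chaperone used by SLC16A7, had 1 read in each siControl culture and 0 in each siZEB1 culture, which is under the filter.

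The glycolytic enzymes that lie between both kinds of transporter were all tested, 19 of 19, with 0 called higher and 7 called lower, beside 19.0% and 21.2% of all genes, and a median log2 fold change of -0.15. LDHA, which makes lactate from pyruvate, stood at 1982, 1989 and 1982 CPM in siControl and at 1613, 1657 and 1567 CPM in siZEB1. All knockdown cultures lay below all controls (log2 fold change -0.30, adjusted p = 5.66e-05, edgeR's quasi-likelihood test). HKDC1, a hexokinase relative at 4.03 ± 0.628 CPM in siControl (SD, n = 3), had the lowest value of the list, -0.82 (adjusted p = 0.00207). LDHB, at 1.60 to 2.33 CPM, was not called, and ALDOA, named after its values were seen, was counted at no more than 3.07 CPM. Exons of other genes on the same strand overlap 33.4% of the exonic bases of LDHB and 42.3% of those of ALDOA, a share that for SLC2A1 and SLC16A3 was 2.37% and 0.678% and for the other 7 members 0.0%. Reads in shared exons can be discarded or assigned to the other gene, so the levels of LDHB and ALDOA are uncertain. Both count among the enzymes that were not called. HIF1A, the oxygen-regulated subunit of the factor behind the hypoxic induction of SLC2A1 and SLC16A3, was not called at the mRNA level (0.071, adjusted p = 0.427).

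**Figure D5:**
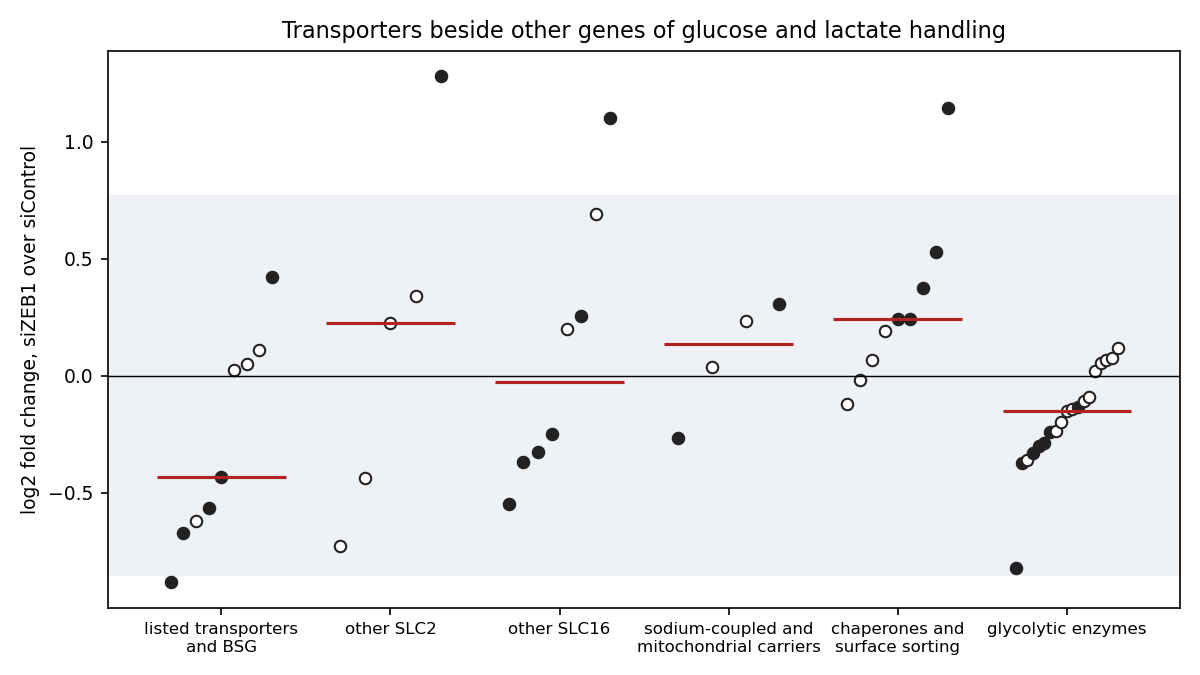
Log2 fold change of siZEB1 over siControl for each tested gene of 6 lists, in order of value within a list; filled points passed the test at an adjusted p of 0.05, red lines are medians, and the shaded band leaves 5% of all genes tested beyond each end. The members have the lowest median, -0.43, the chaperone and sorting genes lie mostly above zero with TXNIP at 1.14, and the glycolytic enzymes cluster just below zero.

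A pair of 7-base sequences in 3′ untranslated regions, picked by an earlier scan of these same fold changes, was looked up in the members. GAACACA occurs in 11.2% and CGGAGAA in 2.17% of 12248 tested genes with a 3′ untranslated region. The principal transcript of each gene was searched, and SLC16A7 was not included. Of the members searched, SLC2A12 alone held GAACACA, once, in the stretch given here with the 7 bases in capitals, and none held CGGAGAA.
SLC2A12: aaaagaaccaGAACACAcagtgtggac
The untranslated regions of the 5 called members, of BSG and of TXNIP contained neither. Since the pair was picked from these same data, its presence or absence is a description and tests no cause.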

How the data were processed

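RNA-seq of 3 siControl and 3 siZEB1 cultures of SW480 cells was analysed from the deposited tables of 1 culture each. Per the submitters' processing notes, the authors used Trimmomatic, HISAT2, SAMtools and featureCounts with hg38; versions, annotation release, strand setting and the treatment of reads with several matches are not given in the sources used here. The deposited values are raw read counts per gene, whole numbers without normalization by the authors. Groups were taken from the labels.

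Counts were filtered with filterByExpr, scaled by TMM and compared with edgeR 4.0.16 (R 4.3.3, limma 3.58.1) by the quasi-likelihood test across all genes (two-sided, no covariate). P-values were adjusted after Benjamini and Hochberg over all 14996 genes that passed the filter, of 32029 listed; genes were called at an adjusted p under 0.05. Levels are CPM with the same scaling, divided by the union of exons in GENCODE 29 (31059 genes matched by identifier) where genes are compared or summed. Sums, shares and ratios carry the SD over 3 cultures and no test; an exact permutation test of 3 against 3 cannot go below p = 0.1. The biological coefficient of variation was 6.58%. Replicates differed by 2.27 to 9.58 times sampling noise (chi-square over degrees of freedom), so none is a copy of another. The pipeline was tested on simulated data.

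The transporters, the context lists and the tests were chosen with earlier results of these data known. Named were all members, ZEB1, in each context list the called genes of highest and lowest log2 fold change at a mean of at least 1 CPM, and SLC2A14, EMB, TXNIP, ARRDC4, MPC1, MPC2, HIF1A, LDHA and LDHB whatever their value. SLC2A4, SLC5A1, SLC5A2, ALDOA and VPS26A were named after their values were seen, as were the markers KRT8, KRT18, KRT20, EPCAM, VIL1 and CDX2. A gene of the context lists is not reported here. Alternatives were DESeq2 1.42.0, other scalings and filters, the replicate number as a block, other thresholds, other lengths and leaving out cultures. Sequences come from RefSeq and GENCODE. Promoter and untranslated sequences were searched with Python 3.11.15.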

Additional observations from a re-analysis of the deposited data

How the results depend on the processing

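The 5 calls among the members, SLC2A3 higher and SLC2A1, SLC2A6, SLC16A1 and SLC16A3 lower, kept their direction under every refit, and of 117 refitted member values 111 kept direction and side of the threshold, 4 passed it anew (SLC2A12 under 3 alternatives, BSG under 1) and 2 changed sign (SLC2A8, -0.029 without siControl replicate 1 and -0.011 without siZEB1 replicate 2). Over all genes, 2849 were called higher and 3186 lower. At a fold change above 1.5 these were 1081 and 1402 with an unadjusted p under 0.05 and 678 and 1004 with p under 0.001. The members called at that fold were 0 higher under both thresholds, and 3 and 2 lower. Without replicate 3 of both groups, added after the data were seen, 2 members were called higher (SLC2A3 and BSG). When cultures were left out, genes called higher ranged from 2305 to 3324 and lower from 2637 to 3599, members called higher from 1 to 2 and lower from 4 to 5. The summed SLC2 change ranged from 3.14% to 4.69%, the summed SLC16 change from -29.1% to -25.2%, the shift of the SLC2A3 share from 16.1 to 17.1 points and that of the SLC16A3 share from -2.09 to -0.402 points. For CPM not divided by length the summed SLC2 change was 8.34% and the shift of the SLC2A3 share 15.0 points, and with the principal transcript length 7.20% and 15.4 points (the order of BSG and SLC2A1, and of SLC2A6 and SLC2A8, depends on that length too). HIF1A turned from 0.071 to -0.036 without replicate 3 of both groups, and ranged from -0.036 to 0.13; SLC2A8 ranged from -0.029 to 0.097. The cause of these shifts was not tested. At a fold change above 1.5, p under 0.001 cannot pass more genes than p under 0.05, by construction. Cultures with the same number did not deviate together (correlations -0.084, -0.143 and -0.302). With 3 cultures per group these values cannot decide whether equal numbers mark pairs, and the labels do not say. With the replicate block 2289 genes were called higher and 2679 lower, and 1 member was higher and 4 lower. Low depth limits SLC2A12, with at most 58 reads in a culture.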
